A study of Mus musculus with 12 samples.

Results

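Bmp4, its type I receptor and the genes its signal is known to switch on were followed in mouse embryonic stem (mES) cells that had lost graded amounts of BRG1, the catalytic subunit of the mSWI/SNF chromatin remodeler. The question was whether the fall of Bmp4 at the highest doses was seen in its target genes as well. The 10 genes were chosen by name, as 1 ligand (Bmp4), 1 receptor (Bmpr1a) and 8 genes downstream of BMP signaling (Id1, Id2, Id3, Id4, Smad6, Bambi, Msx1 and Msx2), out of 24421 genes in the count table. Bmp4 itself was picked because its level fell late in the dose series of these libraries. Its values are therefore given as a description with no test, and tests are given for the other 9 genes.

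BMP4 is a secreted ligand of the TGFβ superfamily. It binds type I receptors such as BMPR1A together with type II receptors, and the active receptors phosphorylate SMAD1, SMAD5 and SMAD9, which enter the nucleus with SMAD4 and bind regulatory DNA. The ID genes are among the best known direct targets of these SMADs, and ID proteins hold E-protein transcription factors off the DNA. In mES cells, BMP4 or serum acts through ID proteins to help LIF hold back differentiation. SMAD6 and BAMBI are induced feedback inhibitors of the pathway, and MSX1 and MSX2 are homeobox factors induced by BMP in many embryonic tissues.

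All 12 libraries came from mES cells of the B6 strain (C57BL/6J) with the FKBP12-F36V degron knocked in to Brg1, grown in 2i and LIF. dTAG13 links the degron to the protein degradation machinery. Cells were treated for 24 h with 0 (control, DMSO), 0.3, 1, 3, 10 or 100 nM dTAG13, with 2 libraries per dose. The line was built from colonies grown from single cells, and no treated libraries without the degron were analysed here, so an effect of dTAG13 itself and an effect of BRG1 loss cannot be told apart. The study's culture medium also held serum, which is a source of BMP ligands. The study describes its expression data as coming from independent experiments. The labels do not say whether the 2 libraries of a dose came from separate cultures, and p-values measure the spread between these libraries.

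Read-pair counts totalled 4663484 to 6375582 per library. Rn45s, a ribosomal RNA gene, took 10.5% to 19.4% of the counts. Its share differed most within the pairs of 1 nM (14.7% and 19.4%), 3 nM (10.5% and 19.0%) and 10 nM (17.7% and 12.1%). What this does to the comparisons with these doses was not tested. Smarca4, the gene for BRG1, stayed at 63.5 to 71.3 RPKM (read pairs scaled by gene length and library size) in every library, which does not check the treatment, since the degron acts on the protein. Oct4 (Pou5f1), Sox2, Nanog and 3 more pluripotency markers summed to 2423 to 2486 CPM (counts scaled by library size alone) at 0 nM and 2569 to 2651 CPM at 100 nM, and none was at 0. Markers of other lineages were far lower. The 6 trophectoderm markers summed to 45.9 to 55.6 CPM at 0 nM and 72.5 to 72.9 CPM at 100 nM, the 6 mesoderm markers to 11.6 to 15.97 and 20.7 to 24.2 CPM, the 6 primitive endoderm markers to 6.18 to 6.70 and 9.15 to 10.4 CPM, and the 6 fibroblast markers to 3.42 to 3.78 and 6.54 to 8.61 CPM. At both of these doses, no marker of these lists was at 0 in both libraries. At 100 nM against 0 nM, 3 of the 6 trophectoderm markers were called higher, as were 1 of 6 in primitive endoderm (Pdgfra), 1 of 6 in mesoderm (Kdr) and 0 of 6 in fibroblasts. Beside these counts, 10.1% of the 11378 tested genes were called higher at 100 nM. In a fit of all 23204 genes with at least 1 count, which gave the values of Pdgfra and Kdr, the share was 6.77%. Cdx2, a trophectoderm factor, had 10 and 4 counts at 0 nM, 19 and 23 counts at 10 nM, and 64 and 60 counts at 100 nM. On the log2 scale Cdx2 rose by 3.10 from the controls to the highest dose (adjusted p = 2.4e-06) and by 1.52 over the last step alone, from 10 to 100 nM (adjusted p = 0.0106). The other called markers of these lineages were at 2.77 (Kdr), 2.36 (Pdgfra), 0.69 (Tfap2c) and 0.33 (Eomes). Gata3 of the trophectoderm list (-1.23, adjusted p = 0.0919) and Sox7 of the primitive endoderm list (-1.16, adjusted p = 0.133) went the other way. Neither was called, and both 100 nM libraries of each lay below both control libraries. How many of all genes are separated in this way was not counted. Such separations of uncalled genes, here and below, are therefore descriptions only. Of the pluripotency markers, Nanog (0.52) and Klf4 (0.28) were higher, and Oct4 (-0.17) and Esrrb (-0.17) lower. These markers are named because they were called or, for Gata3 and Sox7, because they went the other way. Their part in the results was not tested, and in bulk RNA fewer cells with a transcript and less transcript per cell cannot be told apart.

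Promoter sequence is shown for Bmp4 and for the ID genes with an entry, because these are the ligand and the targets whose responses over the doses were compared. RefSeq promoter entries on GRCm38.p6, the assembly also called mm10, matched 8 of the 10 genes. Id1 and Bambi had no entry, so the promoter of Id1 is neither shown nor searched. The 250 bases before each start were searched on both strands for GGCGCC, a GC-rich element known to bind SMAD1 and SMAD5, which reads the same on both strands and was the only motif searched. Starts are those of RefSeq, which for Bmp4 and Id4 lie upstream of the span given in the count table. Capitals mark the element, and each sequence runs 5′ to 3′ on the strand of the gene.
Bmp4 (chr14:46390670-46390919, minus strand): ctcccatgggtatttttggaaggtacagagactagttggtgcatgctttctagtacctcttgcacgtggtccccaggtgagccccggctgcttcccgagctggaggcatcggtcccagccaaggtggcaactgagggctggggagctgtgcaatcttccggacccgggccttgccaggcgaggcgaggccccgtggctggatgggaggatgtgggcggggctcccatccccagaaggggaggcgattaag
Id2 (chr12:25096093-25096342, minus strand): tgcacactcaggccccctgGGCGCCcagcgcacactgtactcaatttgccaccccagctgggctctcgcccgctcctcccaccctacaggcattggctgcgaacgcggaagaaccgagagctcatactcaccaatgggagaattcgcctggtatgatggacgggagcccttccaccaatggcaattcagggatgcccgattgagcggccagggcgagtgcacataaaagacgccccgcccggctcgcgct
Id3 (chr4:136143572-136143821, plus strand): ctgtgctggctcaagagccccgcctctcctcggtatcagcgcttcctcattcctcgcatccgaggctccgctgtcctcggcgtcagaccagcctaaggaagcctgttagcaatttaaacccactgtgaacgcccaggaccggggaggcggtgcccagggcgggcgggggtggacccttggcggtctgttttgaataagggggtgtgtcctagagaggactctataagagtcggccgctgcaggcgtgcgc
Id4 (chr13:48260866-48261115, plus strand): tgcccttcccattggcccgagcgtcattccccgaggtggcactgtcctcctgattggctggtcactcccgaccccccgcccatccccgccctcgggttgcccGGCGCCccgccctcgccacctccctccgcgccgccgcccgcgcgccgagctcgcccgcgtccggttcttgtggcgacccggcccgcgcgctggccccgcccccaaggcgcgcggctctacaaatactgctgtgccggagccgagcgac
Id2 held the element 231 bases before its start and Id4 148 bases before its start. Neither Bmp4 nor Id3 held these letters in this window. Of the other members with an entry, Bmpr1a held it and Smad6, Msx1 and Msx2 did not. The element was present in 9.6% of all 32851 promoter windows of this length.

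Levels of the 10 genes were spread over a wide range. In the control libraries Id1 had the highest mean at 61.8 RPKM, followed by Id3 at 21.1, Bmpr1a at 15.6, Bmp4 at 9.91, Id2 at 3.66, Bambi at 2.36, Msx2 at 1.39, Smad6 at 1.31, Id4 at 0.956 and Msx1 at 0.178 RPKM. Genes were tested together where their mean over the 12 libraries was at least 1 RPKM. Id4 at 1.15 and Smad6 at 1.03 RPKM lay just inside this filter. Msx2 at 0.928 RPKM and Msx1 at 0.182 RPKM lay outside it, and were taken from a second fit of all 23204 genes with at least 1 count. Thus 8 of the 10 genes passed, Bmp4 among them. In the control libraries the 4 highest genes had separate ranges, and those of Id2 (2.97 to 4.35 RPKM), Bambi (1.91 to 2.81) and Msx2 (1.35 to 1.43) were also separate, while the 2 libraries of Smad6 (0.822 and 1.79 RPKM) spanned both Msx2 and Id4 (0.931 and 0.980 RPKM).

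**Figure D1:**
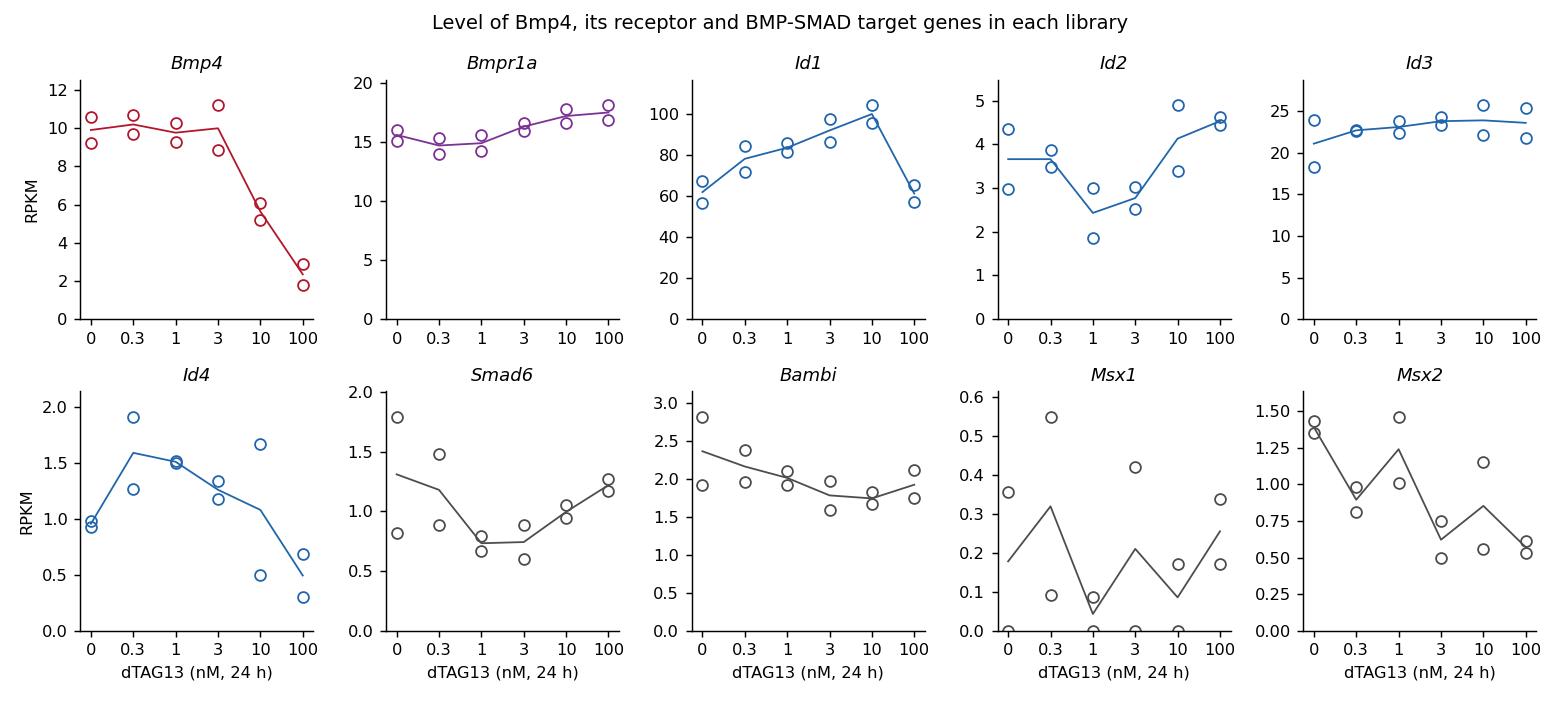
RPKM of each gene (vertical axes, each starting at 0) in the 2 libraries of each dTAG13 dose (circles), with a line through the dose means. Bmp4 keeps its level to 3 nM and falls at 10 and 100 nM, Id1 climbs to 10 nM and is back at its control level at 100 nM, and Id3 and Bmpr1a stay near their control levels.

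Bmp4 kept its control level up to 3 nM and then fell in 2 steps. The gene (chromosome 14, from 46383520 to 46390599 on the minus strand, mm10) stood at 10.6 and 9.22 RPKM in the control libraries, and at 8.86 to 11.2 RPKM in the 6 libraries from 0.3 to 3 nM. It then measured 5.22 and 6.06 RPKM at 10 nM and 2.91 and 1.80 RPKM at 100 nM. The 4 libraries of the 2 highest doses lay below all 8 libraries of the lower doses, and those of 100 nM lay below those of 10 nM. In counts, the control libraries held 123 and 113 read pairs of Bmp4, the 10 nM libraries 63 and 70, and the 100 nM libraries 35 and 22.

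Relative to the control mean of 9.91 ± 0.969 RPKM (SD, n = 2), Bmp4 stood at 103%, 98.7%, 101%, 57.0% and 23.8% in order of rising dose from 0.3 to 100 nM. The log2 fold change against 0 nM was -0.81 at 10 nM (standard error 0.19) and -2.07 at 100 nM (standard error 0.22, 95% interval -2.52 to -1.62). Between 10 and 100 nM it was -1.26 (standard error 0.24). A gene of the opposite strand, Gm15217, overlaps Bmp4 and was at 0.393 RPKM, and the counts did not use the strand, so reads of the pair cannot be told apart. The nearest tested genes on either side, Ddhd1 and Cdkn3, had log2 fold changes of 0.27 (adjusted p = 0.268) and 0.50 (adjusted p = 0.373) at 100 nM, from the quasi-likelihood test of edgeR, whose p-values, here and throughout, were adjusted over all genes of the fit by the Benjamini-Hochberg method.

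The 5 genes whose profile over the 12 libraries was most like that of Bmp4 were Mras, Myo1f, Krt17, Epb4.1l1 and Zfp568, with Pearson's r of 0.988, 0.977, 0.976, 0.971 and 0.968 on log2(RPKM + 0.1). These coefficients rank genes after the values were seen and share the same libraries, so they are descriptions only. Mras, which encodes a RAS-family GTPase, had a log2 fold change of -0.74 at 10 nM and -1.90 at 100 nM, and Krt17, a keratin, -1.47 and -3.40. On the same scale the BMP pathway members were spread over both signs. Id4 reached 0.694, Id1 0.333 and Bambi 0.126, while Id3 was at -0.108, Smad6 at -0.320, Id2 at -0.567 and Bmpr1a at -0.694. Ranked among 11377 genes by likeness to Bmp4, the nearest of these members, Id4, stood at place 1043 and Id1 at place 3279.

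The receptor gene among the 10 did not fall with its ligand. Bmpr1a, which encodes a type I receptor for BMP4, had a mean of 15.6 ± 0.614 RPKM at 0 nM (SD, n = 2), and measured 16.6 and 17.8 RPKM at 10 nM, and 16.9 and 18.1 RPKM at 100 nM. The 100 nM libraries lay above both control libraries, by a small amount. At 100 nM the log2 fold change was 0.17 (standard error 0.084, upper end of the 95% interval 0.34, adjusted p = 0.156), which did not pass the test. Fitted as a slope over the 6 doses, it rose by 0.05 in log2 per dose step (standard error 0.015, adjusted p = 0.0184). It was the 1 of the 9 members called in the slope fit, where 29.3% of all 11378 tested genes were called. The slope was no longer called without the second 100 nM library (0.04 per step, adjusted p = 0.0792), in the 8 libraries of 0, 1, 10 and 100 nM alone (adjusted p = 0.0854), or with no filter on low values (adjusted p = 0.159). Against 0.3 nM, a comparison chosen after the data were seen, Bmpr1a at 100 nM was higher by 0.26 in log2 (standard error 0.085, adjusted p = 0.0337), where 8.60% of all tested genes were called higher. Of its nearest tested neighbors, Fam25c (log2 fold change -1.39, adjusted p = 0.00127) and Wapal (-0.28, adjusted p = 5.6e-04) were both lower at 100 nM, and they were the 2 called among the 20 nearest tested neighbors of the 10 genes, beside 23.4% called over all tested genes.

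Id1 was the member called against 0 nM and between 10 and 100 nM. Its mean climbed up to 3 nM, where Bmp4 kept its level, and on to 10 nM, where Bmp4 was lower. From 10 to 100 nM both were lower, with log2 fold changes of -0.71 for Id1 and -1.26 for Bmp4. The difference between the 2 genes was not tested. Id1 was the most abundant ID transcript here, making up 66.9% to 78.4% of the summed RPKM of Id1 to Id4 in a library. The control libraries measured 56.4 and 67.2 RPKM. With 0.3 nM dTAG13 the level was 71.6 and 84.4 RPKM, with 1 nM it was 81.1 and 85.7 RPKM, with 3 nM 97.6 and 86.1 RPKM and with 10 nM 95.2 and 104 RPKM. The 100 nM libraries then measured 65.1 and 57.1 RPKM. All 8 libraries from 0.3 to 10 nM lay above both control libraries and above both 100 nM libraries, while the ranges at 0 and 100 nM overlapped.

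As a share of the control mean, Id1 stood at 126%, 135%, 148% and 161% at 0.3, 1, 3 and 10 nM, and at 98.7% at 100 nM. Against 0 nM, the value of 0.33 on the log2 scale for 0.3 nM (standard error 0.11, adjusted p = 0.377) did not pass the test. Id1 rose by 0.43 with 1 nM (standard error 0.11, adjusted p = 0.0259), by 0.57 with 3 nM (standard error 0.11, adjusted p = 7.7e-04) and by 0.69 with 10 nM (standard error 0.10, adjusted p = 2.4e-05). Only the value at 10 nM was also above a fold change of 1.5, the further limit for a differentially expressed gene, which 3.01% of all tested genes passed upward at that dose. The call at 1 nM was lost without the first control library (0.30, adjusted p = 0.361), without either 1 nM library (0.47, adjusted p = 0.108, and 0.38, adjusted p = 0.266), and in DESeq2 (adjusted p = 0.0717).

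Between 10 and 100 nM, Id1 fell by 0.71 on the log2 scale (standard error 0.10, 95% interval -0.92 to -0.49, adjusted p = 1.4e-04). At 100 nM against 0 nM its log2 fold change was -0.02 (standard error 0.11, 95% interval -0.24 to 0.20, adjusted p = 0.926), so a fall of the size seen in Bmp4 lay outside the interval. The comparisons of 10 with 0 nM and of 100 with 10 nM share the 10 nM libraries. Set against the other treated doses, chosen after the data were seen, the log2 fold change of Id1 at 100 nM was -0.35 from 0.3 nM (adjusted p = 0.0190), -0.45 from 1 nM (adjusted p = 0.00384) and -0.59 from 3 nM (adjusted p = 4.5e-04), where 11.6%, 7.87% and 4.68% of all tested genes were called lower. The rise at 10 nM was called in every alternative that was run, with adjusted p from 5.2e-09 to 0.00319, as was the fall from 10 to 100 nM, with adjusted p from 4.9e-11 to 0.0195.

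**Figure D2:**
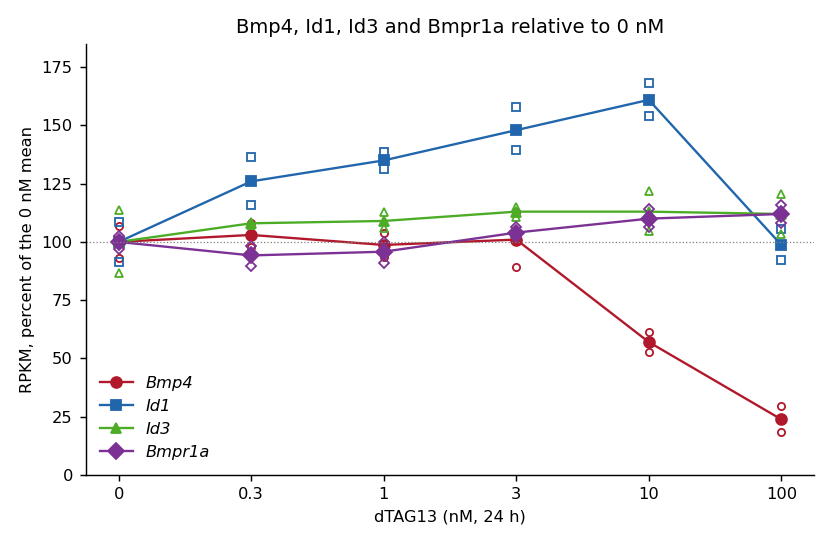
Level of Bmp4, Id1, Id3 and Bmpr1a as a percent of each gene's 0 nM mean RPKM (vertical axis) at each dTAG13 dose (horizontal axis, evenly spaced). Filled symbols are means of 2 libraries and open symbols single libraries. At 10 nM Bmp4 is at 57.0% and Id1 at 161%, and at 100 nM Bmp4 is at 23.8% and Id1 at 98.7%.

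In the labels, library numbers run on through the doses 0, 1, 10 and 100 nM, and some of these numbers occur again for 0.3 and 3 nM. Comparisons of 0.3 or 3 nM with 0 or 100 nM, for Id1 and for other genes, are thus across 2 series of numbers. Among the 8 libraries of the first series alone, the Id1 log2 fold changes were 0.69 at 10 nM (adjusted p = 8.1e-06) and -0.71 from 10 to 100 nM (adjusted p = 4.8e-05). Within the second series, Id1 was 0.23 higher at 3 than at 0.3 nM on the log2 scale (standard error 0.10, adjusted p = 0.222) and did not pass the test. None of the 9 members was called between these 2 doses, where edgeR called 5.31% of all tested genes. At an unadjusted p under 0.05, 1 of the 9 members passed there, and DESeq2 and edgeR's likelihood ratio test called 0.

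The other ID genes did not pass any test against 0 nM. Id3, the second in level, measured 24.0 and 18.3 RPKM at 0 nM and 25.4 and 21.8 RPKM at 100 nM, and it lay between 22.1 and 25.7 RPKM in the 8 libraries in between. Its control libraries spanned most of its range. The log2 fold change at 100 nM was 0.16 (standard error 0.15, 95% interval -0.15 to 0.47, adjusted p = 0.490), and from 10 to 100 nM it was -0.02 (95% interval -0.33 to 0.29, adjusted p = 0.981).

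Id2 was measured on 14 to 36 counts per library. It stood at 2.97 and 4.35 RPKM at 0 nM, at 1.85 and 3.01 RPKM at 1 nM, and at 4.43 and 4.63 RPKM at 100 nM, where both libraries were above the control libraries. The log2 fold change at 100 nM was 0.30 (standard error 0.32, 95% interval -0.35 to 0.95, adjusted p = 0.547).

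Id4 was the ID gene with the lowest level, on 3 to 18 counts per library. The control libraries measured 0.931 and 0.980 RPKM and the 0.3 nM libraries 1.91 and 1.27 RPKM. With 10 nM the level was 0.498 and 1.67 RPKM, and with 100 nM it was 0.299 and 0.689 RPKM. Both 100 nM libraries were below the control libraries. The log2 fold change of -0.93 at 100 nM did not pass the test (standard error 0.65, 95% interval -2.26 to 0.40, adjusted p = 0.328), and at this depth neither no change nor a fall as large as that of Bmp4 lay outside its interval. Against 0.3 nM, a comparison across these 2 series of library numbers and chosen after the data were seen, Id4 at 100 nM was lower (log2 fold change -1.66, standard error 0.59, adjusted p = 0.0477). A gene of the opposite strand, A330033J07Rik, overlaps Id4 at 0.0669 RPKM.

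Summed over Id1 to Id4, the ID level was 84.3 and 90.8 RPKM in the control libraries, 125 and 133 RPKM at 10 nM, and 84.2 and 95.1 RPKM at 100 nM. The summed level at 100 nM thus overlapped that of the controls.

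The feedback inhibitors did not pass the test at any dose. Smad6, an inhibitory SMAD, measured 1.79 and 0.822 RPKM at 0 nM, 0.672 and 0.793 at 1 nM, and 1.17 and 1.27 RPKM at 100 nM. Its control libraries differed from each other more than the dose means did, and the log2 fold change at 100 nM was -0.09 (standard error 0.39, 95% interval -0.89 to 0.71, adjusted p = 0.904). Bambi, a decoy receptor that lacks the kinase domain, measured 1.91 and 2.81 RPKM at 0 nM, 1.67 and 1.82 RPKM at 10 nM, and 1.74 and 2.11 RPKM at 100 nM, with a log2 fold change at 100 nM of -0.30 (standard error 0.22, 95% interval -0.75 to 0.16, adjusted p = 0.366).

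The MSX genes were near the limit of detection. Msx2 had 17 and 19 counts at 0 nM (1.35 and 1.43 RPKM), 8 and 6 counts at 3 nM, 15 and 7 counts at 10 nM, and 8 and 7 counts at 100 nM (0.613 and 0.529 RPKM). Both libraries at 0.3, 3, 10 and 100 nM lay below both control libraries, while those at 1 nM (1.01 and 1.46 RPKM) overlapped them. The log2 fold change at 100 nM was -1.27 (standard error 0.50, 95% interval -2.25 to -0.29, adjusted p = 0.0720), which did not pass the test. With no filter on low values and library sizes set from all genes, it was called at -1.35 (adjusted p = 0.0470), and its adjusted p lay between 0.0470 and 0.286 in the 21 alternatives. Msx1 had 0 to 6 counts in a library, too few for a fold change, since a count of 0 still allows up to 3 counts.

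**Figure D3:**
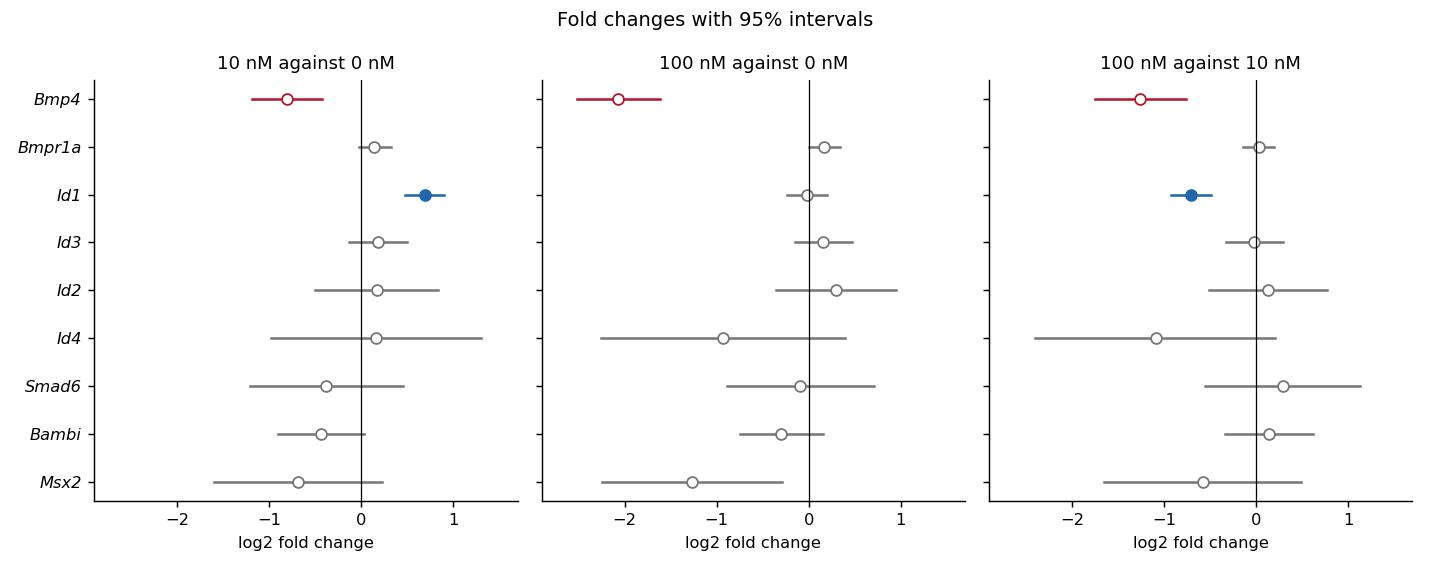
Log2 fold changes (horizontal axes) with 95% intervals from the fit of all 12 libraries, for 10 against 0 nM, 100 against 0 nM and 100 against 10 nM. Filled blue points passed an adjusted p of 0.05, open points did not, and Bmp4 (red) was not tested. Msx1 had too few counts and is left out. Of the tested genes, Id1 is called at 10 against 0 nM (0.69) and at 100 against 10 nM (-0.71).

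Across the 9 tested members, 7 of them in the fit of filtered genes and the MSX genes in the second fit, 0 were called at 0.3 nM, where 0.0703% of all tested genes were called in either direction. At 1, 3 and 10 nM, 1 of 9 was called each time, Id1 and higher, where 2.29%, 9.40% and 17.9% of all tested genes were called. At 100 nM 0 of 9 were called by edgeR, where 23.4% of all tested genes were called. At an unadjusted p under 0.05, 1 of 9 passed at 100 nM (Msx2, lower), and DESeq2 and the likelihood ratio test called 0. At 0.3 nM, 1 of 9 passed unadjusted (Id1, higher) and the likelihood ratio test called 0. DESeq2 gave no adjusted p for the members at that dose, so it gives no count there. Between 10 and 100 nM 1 of 9 was called (Id1, lower), where 2.37% of all tested genes were called. Msx1 is counted among the 9 although it had too few counts for a fold change. Over the other 8, the median log2 fold change at 100 nM was -0.06, beside 0.00 over all tested genes, with 3 positive and 5 negative values.

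Other genes of the pathway were counted from 6 lists written by role, which held 57 genes, 56 of them in the table and 24 above the filter. At 100 nM against 0 nM, 4 of the 24 were higher and 3 lower, or 29.2%, beside 23.4% of all tested genes, and no fold change among the 7 exceeded 1.5. At 10 nM, 5 were higher and 2 lower, again 29.2%, beside 17.9% of all tested genes. In the slope over the doses, 5 were higher and 4 lower, or 37.5%, beside 29.3% of all tested genes. Of the 32 genes below the filter, 6 were called in the slope of the second fit, all with 0 to 22 counts in a library. These were Bmp2, Smad9, Nog, Atoh8 and Runx2, higher, and Bmp8a, lower, named after their values were seen. In that fit 11.8% of all 23204 genes were called higher in the slope and 7.73% lower. The median log2 fold change of the 24 genes was 0.04 at 100 nM, beside 0.00 over all tested genes.

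Among 14 other ligand genes, 1 was above the filter. Gdf3, a ligand of the TGFβ superfamily expressed in pluripotent cells, fell from 42.5 and 48.2 RPKM at 0 nM to 39.4 and 37.3 RPKM at 10 nM and 32.5 and 31.5 RPKM at 100 nM (log2 fold change at 100 nM -0.50, standard error 0.086, adjusted p = 7.5e-05). Like Bmp4 it was lowest at 100 nM, and it kept 70.6% of its control mean there. Bmp2, a ligand closely related to Bmp4 that signals through the same receptors, is named here after its values were seen. It had 0 counts in both libraries at 0, 1 and 3 nM and 0 and 1 counts at 0.3 nM, then 3 and 4 counts at 10 nM and 6 and 3 counts at 100 nM. It did not pass the test at 100 nM (adjusted p = 0.0914) and was called higher in the slope (adjusted p = 0.00349). No fold change is given, since a count of 0 allows up to 3 counts. Of 6 receptor and co-receptor genes above the filter, Bmpr2, the type II receptor for BMPs, was called and rose by 0.32 in log2 at 100 nM (standard error 0.097, adjusted p = 0.0176). The control mean of Bmpr2 was 4.80 RPKM and its mean at 100 nM 5.99 RPKM. Acvr1 of the same list, named after its values were seen, was at -0.59 in log2 at 100 nM (standard error 0.28, adjusted p = 0.143). It did not pass the test. As a description, both its 100 nM libraries lay below both control libraries.

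Of 9 SMAD and SMAD regulator genes above the filter, 2 rose and 1 fell at 100 nM. Smad7, an inhibitory SMAD of the TGFβ and BMP pathways and itself a target of both, was at 28.8 and 29.1 RPKM at 0 nM, 36.9 and 35.2 RPKM at 3 nM, 39.8 and 38.8 RPKM at 10 nM, and 38.0 and 39.8 RPKM at 100 nM. All 6 libraries from 3 nM upward lay above the control libraries. Smad7 rose by 0.31 on the log2 scale with 3 nM (adjusted p = 0.00334), by 0.44 with 10 nM (adjusted p = 2.9e-05) and by 0.42 with 100 nM (standard error 0.068, adjusted p = 3.1e-05). Unlike Id1 it was thus above its control level at 100 nM too, although the difference between the genes was not tested. Skil, a SMAD co-repressor, rose by 0.36 in log2 between 10 and 100 nM (standard error 0.078, adjusted p = 0.0101), from a mean of 12.4 RPKM to 15.9 RPKM, while the related Ski was lower at 100 than at 0 nM (-0.26, standard error 0.082, adjusted p = 0.0236). The SMADs that carry the BMP signal did not pass the test at 100 nM, with log2 fold changes of -0.20 for Smad1 (adjusted p = 0.337), 0.21 for Smad5 (adjusted p = 0.237) and 0.04 for Smad4 (adjusted p = 0.836). Smad9, the third of the SMADs that BMP receptors phosphorylate, lay below the filter, with 2 and 3 counts at 0 nM and 10 and 7 counts at 100 nM. In the second fit it did not pass at 100 nM (adjusted p = 0.212), but was called higher in the slope (adjusted p = 0.0224).

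Of 12 extracellular antagonist genes 2 were above the filter, and Fst, which encodes the activin and BMP antagonist follistatin, rose from a mean of 9.06 to 12.4 RPKM at 100 nM (log2 fold change 0.45, standard error 0.12, adjusted p = 0.00744). Of 8 further target genes 3 were above the filter. Dusp9, an ERK phosphatase induced by BMP4 in mES cells, measured 13.9 and 16.9 RPKM at 0 nM, 13.8 and 10.9 RPKM at 10 nM, and 9.93 and 10.8 RPKM at 100 nM. Dusp9 was lower at 100 nM, by -0.58 on the log2 scale with a standard error of 0.14 (adjusted p = 0.00328). The call was lost without the second control library (-0.43, adjusted p = 0.0951) or without the first 100 nM library (-0.52, adjusted p = 0.0539). The other 2 of these target genes, Gata2 and Tbx20, are named after their values were seen. Gata2 measured 0.900 and 1.56 RPKM at 0 nM, 0.688 and 0.768 RPKM at 3 nM, and 1.07 and 1.06 RPKM at 100 nM. Its mean was lowest at 3 nM (log2 fold change -0.75, adjusted p = 0.326). It did not pass the test at 10 nM (adjusted p = 0.430) or 100 nM (adjusted p = 0.752) either. Tbx20, a T-box factor, measured 0.573 and 1.13 RPKM at 0 nM, 1.61 and 1.45 RPKM at 10 nM, and 1.03 and 1.09 RPKM at 100 nM. It was called higher at 3 nM (log2 fold change 0.88, adjusted p = 0.0290) and at 10 nM (0.83, adjusted p = 0.0229), and at 100 nM it was at 0.31 (adjusted p = 0.458). Zfp423, a zinc finger partner of BMP-activated SMADs, belongs to the SMAD regulator list and is also named after its values were seen. It measured 11.6 and 12.3 RPKM in the controls, 15.6 and 14.8 RPKM at 10 nM, and 12.7 and 11.8 RPKM at 100 nM. It too was called higher at 3 nM (0.43, adjusted p = 0.00253) and 10 nM (0.35, adjusted p = 0.00710), and was at 0.03 at 100 nM (adjusted p = 0.833). Neither Tbx20 (adjusted p = 0.389) nor Zfp423 (adjusted p = 0.0646) passed between 10 and 100 nM, where Id1 did. Likeness of Tbx20 or Zfp423 to Id1 was not tested. The calls of Bmpr2 and Ski were lost without the second 0 nM library (adjusted p = 0.183 and 0.261) and without the second 100 nM library (adjusted p = 0.190 and 0.196), and that of Fst without the second 0 nM library (adjusted p = 0.0623).

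The E proteins, which ID proteins bind, were all above the filter, and 0 of 3 were called at 100 nM by either test of edgeR or by DESeq2, with 1 passing edgeR's quasi-likelihood test at an unadjusted p under 0.05. Tcf3, the most abundant, had a mean of 38.0 RPKM at 0 nM and 37.8 RPKM at 100 nM (log2 fold change -0.01, adjusted p = 0.975). Tcf12 was at 0.13 (adjusted p = 0.456). Tcf4 was lower at 10 nM, at -0.39 with a standard error of 0.13 (adjusted p = 0.0405). It did not pass at 100 nM, where it was at -0.33 (adjusted p = 0.0693). In the slope over the doses Tcf4 was called lower, at -0.07 per dose step (adjusted p = 0.0231). In that fit 15.7% of all tested genes were called lower.

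**Figure D4:**
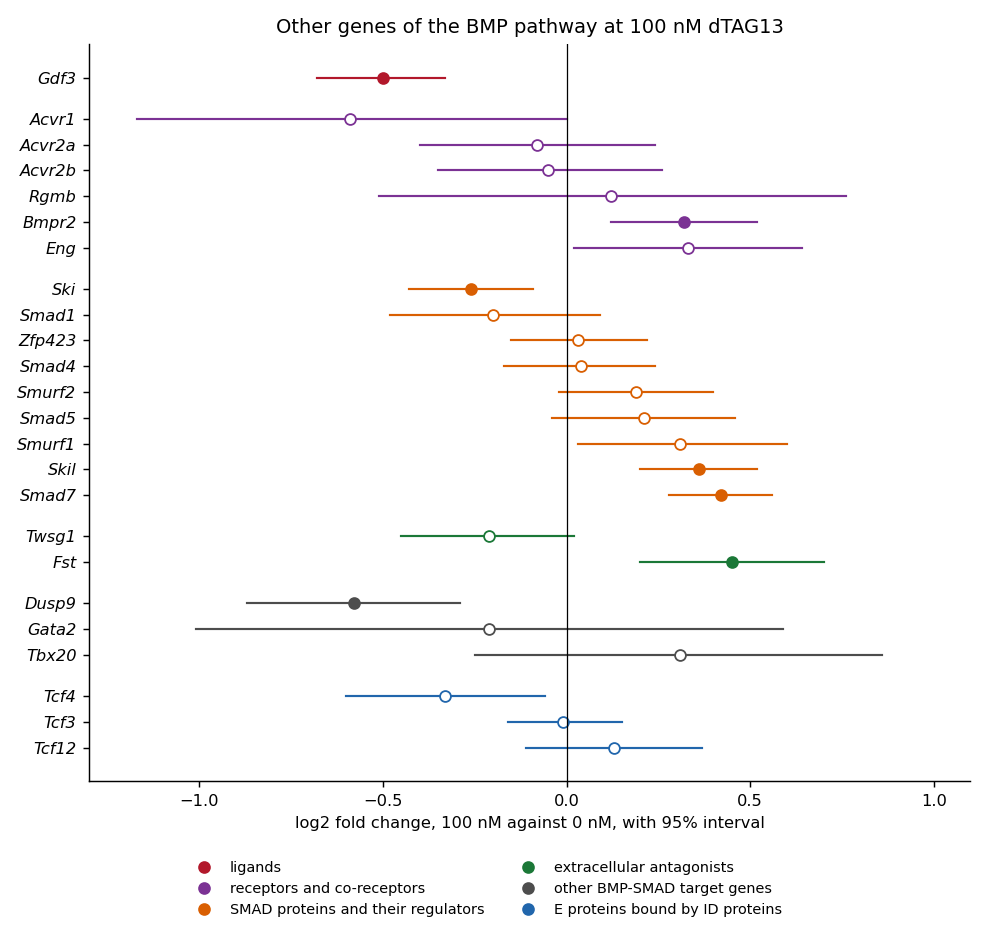
Log2 fold change at 100 nM against 0 nM (horizontal axis) with 95% intervals for the 24 listed pathway genes above the filter, colored by list. Filled points passed an adjusted p of 0.05. The 7 called genes lie between -0.58 (Dusp9) and 0.45 (Fst).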

How the data were processed

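For the 12 libraries the authors deposited unnormalized counts of read pairs for each gene, with gene lengths. Per the labels, the tools were Trim Galore, HISAT2 and featureCounts on mm10, and per the file header featureCounts 2.0.1 counted exons of pairs with both ends aligned, without strand. All columns were used (0 left out). In R 4.3.3, edgeR 4.0.16 fitted the 6 doses together with TMM scaling over 11378 genes averaging 1 RPKM or more (23204 genes with at least 1 count in the second fit). Genes were called at a Benjamini-Hochberg adjusted p under 0.05 over all genes of a fit, and each standard error is the fold change divided by the root of the quasi-likelihood F. The study used edgeR's likelihood ratio test, here an alternative, as were DESeq2 1.42.0, other scalings, no filter, other sample sets and leaving out each library. Steps were tested on simulated counts. By rule, named genes are the members, the pathway genes called at 100 nM, the E proteins, the 5 genes most like Bmp4, and, for each member, its nearest tested neighbors and overlapping genes. Other genes, among them markers and further pathway genes, were named outside this rule, some of them after their values were seen. The members and lists were chosen with earlier results of these data known. Intervals cover counting error and the spread between libraries as edgeR models them.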

Additional observations from a re-analysis of the deposited data

How the results depend on the processing

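No result changed direction under an alternative once it was called. Among the members, the call of Id1 at 1 nM against 0 nM went from 1 to 0 in DESeq2, with no normalization factors and where a fold change over 1.5 was required, which also took the call at 3 nM to 0. With no filter on low values, 1 member (Msx2) was called lower at 100 nM. In the slope over doses, 1 member was called lower (Msx2) by the likelihood ratio test and with no filter, and the 1 called higher (Bmpr1a) became 0 with no filter and in the 8 libraries of 0, 1, 10 and 100 nM. Of the pathway genes at 100 nM, 2 were called higher in DESeq2, 2 higher and 5 lower with no filter, and 0 in either direction where a fold change over 1.5 was required. Leaving out each library in turn gave 0 to 1 members higher at 1 nM, 0 to 1 higher and 0 to 1 lower in the slope, and 2 to 4 pathway genes higher and 1 to 4 lower at 100 nM. Over all alternatives the log2 fold change of Bmp4 ran from -2.45 to -1.76 at 100 nM and from -0.92 to -0.71 at 10 nM. Apart from the smaller sample sets and the fold limit, the cause of these changes was not tested.

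Replicate numbers did not pair the libraries. Correlations of same-numbered libraries' deviations from their dose means ran from -0.0948 to 0.0927 over 15 pairs of doses, and with the replicate block 1 member was called higher at 10 nM and 1 lower from 10 to 100 nM, 0 at 100 nM, and 4 pathway genes higher and 3 lower, as without it. Total counts of 4663484 to 6375582 limit Msx1, Msx2, Id4 and Smad6, which had 0 to 31 counts in a library, and Bmp4 at 100 nM, which rests on 35 and 22 counts.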
